A study of Mus musculus with 29 samples.

Results

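The acute-phase and metallothionein genes are 9 genes of the mouse heart: the metallothioneins Mt1 and Mt2, the acute-phase genes Serpina3n, Lcn2, Lrg1, Saa3 and Hp, and the regulators Socs3 and Stat3. They were taken by symbol from a table of 29955 genes, each was found, and each was among the 12759 genes that averaged 0.5 FPKM or more and were tested. The mice were C57BL6 males that were 3 months old at the start. To bring about heart failure (HF), mice were given for 5 weeks L-NAME, which blocks nitric oxide synthases, at 0.3 mg/ml in drinking water that also held NaCl at 1%, and angiotensin II at 0.7 mg/kg/day from a 28-day osmotic pump placed after the first week. Recovery mice went through the same induction, then drank normal water, with the pump spent. Controls were age matched to phases of the protocol. Counted from the start of induction, HF was sampled at week 3 (2 libraries) and week 5 (3 libraries), recovery at weeks 7, 9, 11, 13 and 19 (2, 2, 3, 2 and 5 libraries), and the controls used here at week 19 (5 libraries). The controls were 14 weeks further on than HF week 5, and also further on than HF week 3 and Recovery weeks 7 to 13. In comparisons of these groups with the controls, HF or recovery and age cannot be told apart. Libraries are numbered within a group only to name them.

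An acute-phase response is the set of secreted proteins that tissues, foremost the liver, make in injury and inflammation. Cytokines of the interleukin 6 family drive it through the receptor gp130 and the transcription factor Stat3, and Socs3 is induced by Stat3 and shuts the receptor down again. Metallothioneins are small proteins rich in cysteine that bind zinc and copper, and they are induced by metals through the factor Mtf1, by glucocorticoids and by the same cytokines. In the heart these genes are known for their induction in acute injury and overload.

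Values are in FPKM, fragments scaled to transcript length and to the fragments mapped in a library, so that levels can be set side by side between genes. The absolute depth is unknown. Steps between low values gave a relative depth of 0.763 to 1.45 for 23 libraries, with 1 control library as the unit, while no steps could be read in HF week 3 library 1, where 12816 genes were above 0 (16339 to 18091 in the rest). The cardiomyocyte marker Tnnt2 stood at 4391 to 9465 FPKM in the 24 libraries. Another, Myh6, was given as 0 throughout HF week 5 and both week 19 groups and at 37546 to 316195 FPKM elsewhere, so that a listed 0 may be a failed estimate. The labels give whole heart and whole ventricle, the methods apical portions, and in such bulk tissue fewer cells of a type cannot be told apart from less RNA per cell. The labels do not say that libraries of a group came from separate animals, so p-values measure the spread between these samples.

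Of the 9 genes 7 rose in HF week 3 relative to the week 19 controls, where 23.1% of all genes tested were called higher, and at HF week 5 only 1 did, against 11.6%. Mt2 rose most among the abundant genes, 13.7-fold, and Hp, which binds free hemoglobin, rose 24.1-fold from a low level. Leaving out library 1 or 2 of HF week 3 gave log2 differences of 4.24 or 3.30 for Mt2 and of 3.19 or 5.99 for Hp. At HF week 5 the levels were split between libraries: library 1 had one of the 3 highest values of the 24 for 7 of the 9 genes, library 2 for 1 and library 3 for 0. Over all 24 libraries, HF week 3 library 1 was among the 3 highest for 9 of 9 genes and HF week 3 library 2 for 5. At Recovery week 19, 0 of the 9 passed the test against Control week 19, as against 0.0235% of all genes tested.

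**Figure D1:**
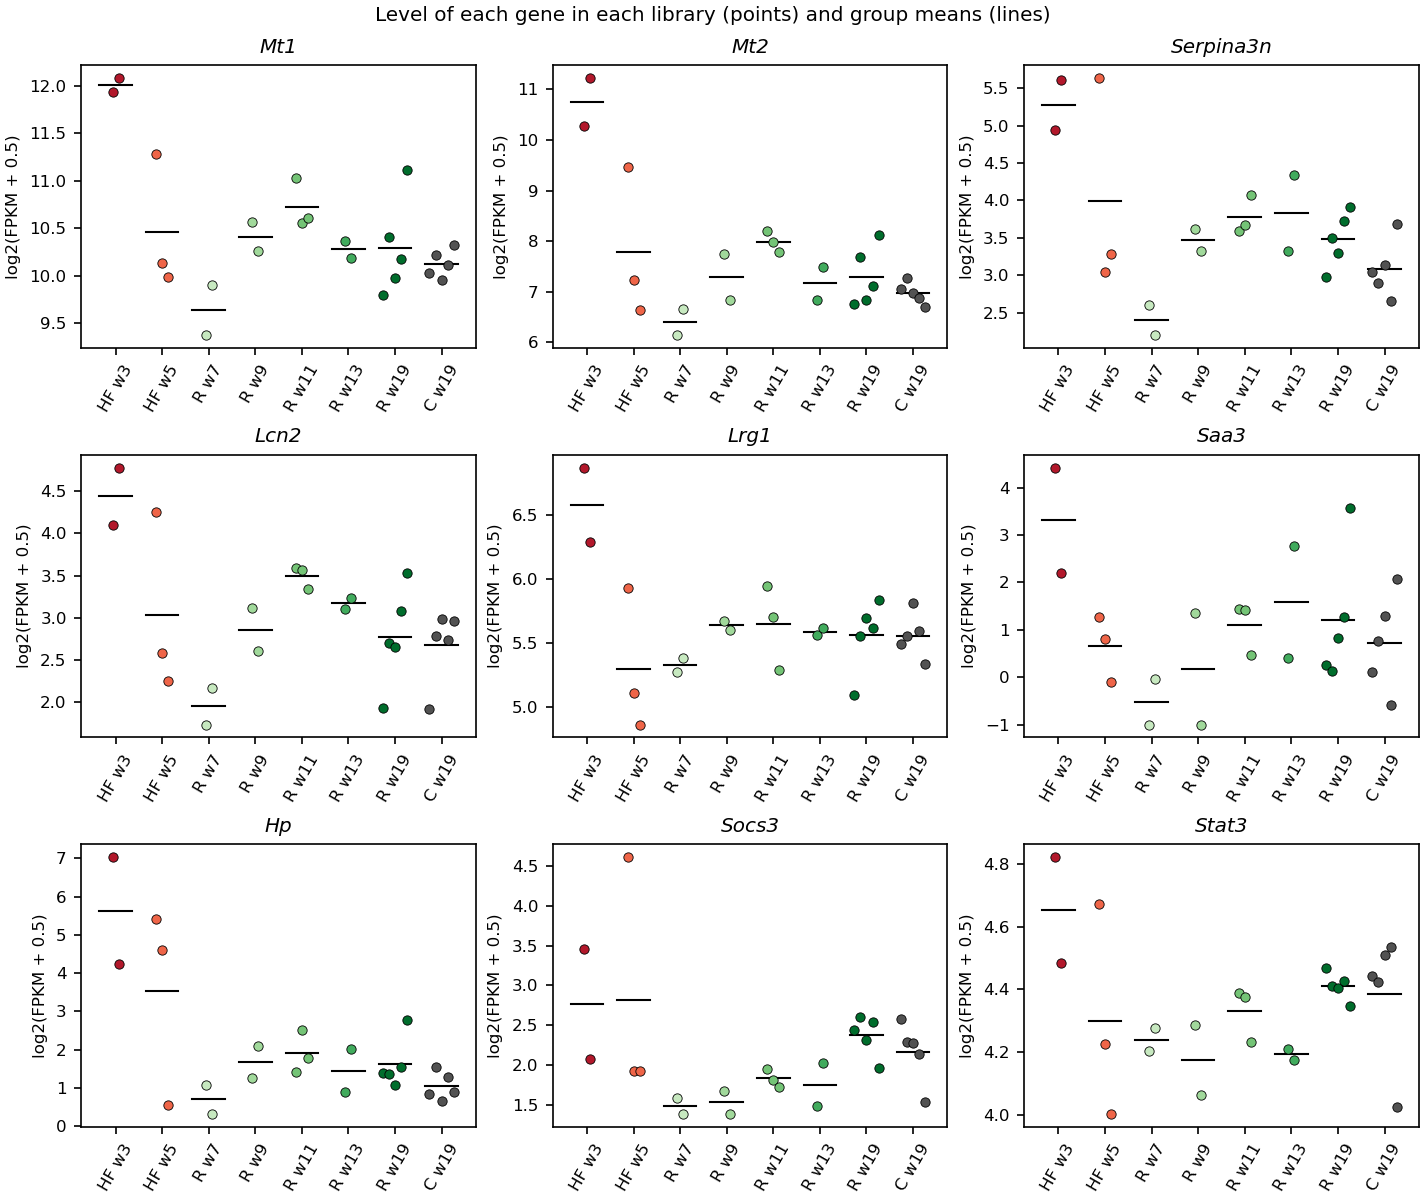
Level of each gene as log2(FPKM + 0.5) in each of the 24 libraries (points) with the group mean (line), by group: HF weeks 3 and 5 (HF w3, HF w5), Recovery weeks 7 to 19 (R w7 to R w19) and Control week 19 (C w19). Both HF week 3 libraries lie above all 5 controls for 7 genes, HF week 5 library 1 is the highest of its group for every gene, with library 2 near it for Hp, and the scale differs between panels.

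Metallothioneins were the most abundant of the 9 genes, with a mean over all libraries of 1544 FPKM for Mt1, rank 99 of the genes tested, and of 318 FPKM for Mt2, rank 348. Mt1 stood at 3902 and 4329 FPKM in HF week 3, and at 1044, 1186, 989, 1108 and 1278 FPKM in Control week 19. Its HF week 5 values were 2485 FPKM in library 1, 1119 in library 2 and 1012 in library 3. Both week 3 libraries were above every control, and of the week 5 libraries only the first was. After induction Mt1 was lowest in Recovery week 7, at 663 and 953 FPKM, below every control. It then stood at 1226 and 1511 FPKM in Recovery week 9, at 1497, 1562 and 2080 in Recovery week 11, at 1166 and 1316 in Recovery week 13 and at 887, 1007, 1158, 1353 and 2217 in Recovery week 19. The 3 libraries of Recovery week 11 were thus all above the highest control, while those of week 19 overlapped the controls.

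Mt2, the second metallothionein of the pair, stood at 1244 and 2392 FPKM in HF week 3, and at 133, 155, 125, 117 and 103 FPKM in Control week 19. The HF week 5 libraries gave 706, 150.1 and 99.98 FPKM. Library 1 was again alone above the controls. Recovery week 7 held the lowest value, with 70.4 and 100.1 FPKM, Recovery week 11 stood at 219.9, 251 and 296, and Recovery week 19 ranged from 107 through a median of 139 to 277. On the log2 scale Mt1 was 1.88 higher in HF week 3 than in control (SE 0.314, adjusted p = 9.5e-05 in limma) and Mt2 was 3.77 higher (SE 0.514, adjusted p = 1.2e-05). The differences from control in HF week 5 were 0.34 (SE 0.274, adjusted p = 0.396) and 0.80 (SE 0.448, adjusted p = 0.205), and without library 1 they were -0.07 and -0.04.

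The balance between the metallothioneins moved with their level. Mt1 was 7.65 to 12.4 times Mt2 in the 5 control libraries, and 3.14 and 1.81 times in HF week 3. The HF week 5 ratio was 3.52 in library 1, 7.46 in library 2 and 10.1 in library 3, and in the recovery groups it was never below 5.96. The 3 libraries with the lowest ratios were therefore the 3 with the highest levels of both genes. The ratio was looked at after the values were seen and is given with no test, and how fragments that match both genes were counted is not given in the sources used here.

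**Figure D2:**
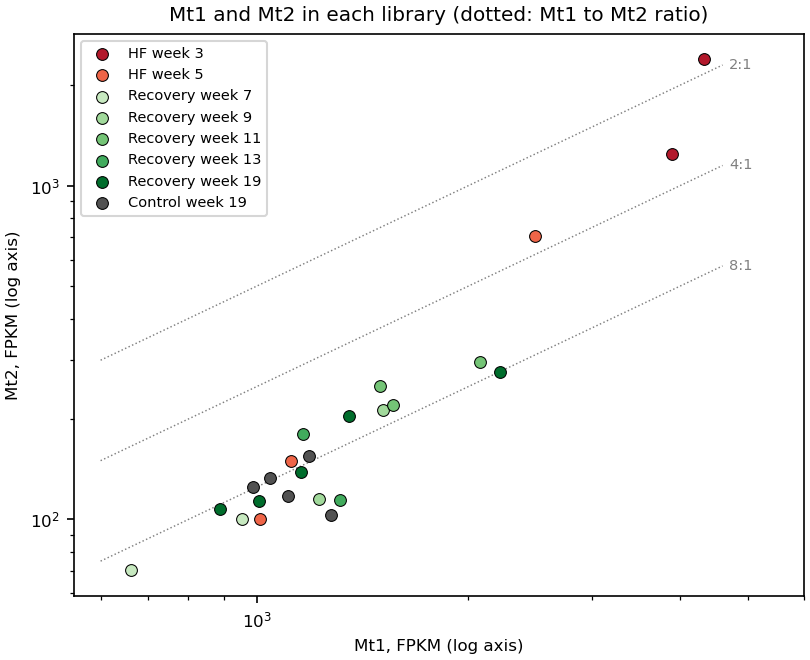
Mt2 against Mt1 in each of the 24 libraries, both in FPKM on log axes, with dotted lines at Mt1 to Mt2 ratios of 2, 4 and 8. Both HF week 3 libraries and HF week 5 library 1 lie above the 4 to 1 line at ratios of 3.14, 1.81 and 3.52, and all other libraries have a ratio of at least 5.96.

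The bases before the starts of both metallothioneins are shown because the metal response element core occurs in both. They are 250 bases upstream of the RefSeq start in GRCm38.p6, written 5′ to 3′ on the strand of the gene, at chr8:94178839-94179088 for Mt1 and chr8:94172368-94172617 for Mt2, both on the plus strand. Capitals mark the metal response element core, searched on both strands as TGCACNC or TGCGCNC, and in Mt1 also the glucocorticoid receptor site, searched as its palindromic consensus. The 2 motifs do not overlap.
Mt1: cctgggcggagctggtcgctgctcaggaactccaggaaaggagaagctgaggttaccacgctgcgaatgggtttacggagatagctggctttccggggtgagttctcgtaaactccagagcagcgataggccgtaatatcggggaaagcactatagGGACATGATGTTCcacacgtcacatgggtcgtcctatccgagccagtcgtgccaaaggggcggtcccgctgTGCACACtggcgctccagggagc
Mt2: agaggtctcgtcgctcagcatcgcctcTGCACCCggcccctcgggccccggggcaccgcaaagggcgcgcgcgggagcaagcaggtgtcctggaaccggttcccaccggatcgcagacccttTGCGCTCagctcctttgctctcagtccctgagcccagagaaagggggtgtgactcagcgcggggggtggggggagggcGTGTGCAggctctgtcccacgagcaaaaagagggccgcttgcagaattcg
Mt1 held 1 metal response core, 23 to 17 bases before the start, and the glucocorticoid receptor site 94 to 82 bases before it. Mt2 held 3 cores, at 223 to 217, 128 to 122 and 50 to 44 bases before the start. Of 32851 promoters of the same length 21.4% held a core and 1.26% held 3 or more, and 0.387% held the glucocorticoid receptor letters. GENCODE transcripts of both genes start up to 152 bases (Mt1) and 242 bases (Mt2) downstream of the RefSeq start, so the window does not reach the bases just before those starts. A match describes these letters and not a used site.

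Of the other genes of metal handling, 22 were listed and 19 tested, and the zinc importer Slc39a8 passed the filter only through the HF libraries. Of the other 18 genes 6 were called higher and 3 lower in HF week 3, where 23.1% and 27.6% of all genes tested were. The median log2 fold change of the 18 was 0.15, against -0.05 over all genes tested. Mt3, another metallothionein, stood at 46.6 and 84.9 FPKM in HF week 3 and at 3.03 to 5.96 in Control week 19, a difference of 3.56 (SE 0.740, adjusted p = 0.000651 in limma). Mtf1 itself was among the lower genes (-0.89, SE 0.194, adjusted p = 0.000983), as was Slc40a1, the iron exporter ferroportin (-1.92, SE 0.245, adjusted p = 6.18e-06). With Slc39a8 counted, the 19 gave 7 higher and 3 lower in that week. Their median was 0.23, and 0.11 without HF week 3 library 1. The 18 gave 3 higher and 3 lower in HF week 5 against Control week 19, where 11.6% and 12.4% of all genes were called. Those that rose were Mt3 (2.36, SE 0.646, adjusted p = 0.0127), Trf, transferrin (1.06, SE 0.252, adjusted p = 0.00544), and the zinc importer Slc39a6 (0.37, SE 0.135, adjusted p = 0.0498). Slc39a8 stood at 1.31 and 9.83 FPKM in HF week 3, at 11.4, 0.856 and 0.859 in HF week 5 and at most 0.381 in the other 19 libraries. Those that fell were the importers Slc39a14 (-0.69) and Slc11a2 (-0.40) and Gclm, a subunit of the enzyme that starts glutathione synthesis (-0.49). The median of the 19 in HF week 5 was 0.10, and 0.04 once HF week 5 library 1 was left out. Mt3 stood at 200 FPKM in that library and at 12.8 and 7.41 in the other two.

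Serpina3n, a secreted inhibitor of serine proteases, stood at 30.3 and 48.1 FPKM in HF week 3 and at 7.78, 6.96, 8.32, 5.82 and 12.4 FPKM in Control week 19. HF week 5 gave 49.1 FPKM in library 1, the highest value of all 24, and 7.78 and 9.27 in libraries 2 and 3. The groups did not overlap at week 3 and overlapped at week 5. It fell to 4.11 and 5.60 FPKM in Recovery week 7, below every control, and stood at 9.49 to 19.7 FPKM from Recovery week 9 to 13 and at 7.36, 9.35, 10.8, 12.7 and 14.6 FPKM in Recovery week 19. On the log2 scale it was 2.19 higher in HF week 3 than in control (SE 0.475, adjusted p = 0.000949 in limma), and 0.90 higher in HF week 5 (SE 0.415, adjusted p = 0.121). The latter was 0.08 without HF week 5 library 1 and 1.37 (adjusted p = 0.0282) without library 2.

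Its promoter is shown because it holds the glucocorticoid receptor letters (capitals) found in Mt1, 78 to 66 bases before the RefSeq start, at chr12:104406458-104406707 on the plus strand of GRCm38.p6. Of the 8 members matched in the RefSeq table only Mt1 and Serpina3n held them. Hp was not matched.
Serpina3n: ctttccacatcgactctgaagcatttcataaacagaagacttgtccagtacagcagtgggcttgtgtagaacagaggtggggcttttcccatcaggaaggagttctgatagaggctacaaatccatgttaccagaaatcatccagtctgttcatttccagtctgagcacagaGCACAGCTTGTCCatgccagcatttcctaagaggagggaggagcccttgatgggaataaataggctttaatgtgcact
The list of glucocorticoid target genes, all 14 of them tested, gave 7 higher and 2 lower in HF week 3, among them Fkbp5 (1.76, SE 0.377, adjusted p = 0.000855 in limma) and Tsc22d3 (1.62, SE 0.284, adjusted p = 0.000148), which are standard readouts of the receptor. Of all genes tested 23.1% were called higher and 27.6% lower there. In HF week 5 against Control week 19 it gave 0 higher and 4 lower, led by Zbtb16 (-1.95, SE 0.385, adjusted p = 0.00154), Klf9 (-1.42) and Ddit4 (-1.41), against 11.6% and 12.4% of all genes. The median of the list was 0.34 in week 3 and -0.45 in week 5, against -0.05 and 0.04 over all genes tested. Without HF week 3 library 1 the week 3 median was -0.014, and without HF week 5 library 1 the week 5 median was -0.89. The difference between the weeks was not tested.

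Lcn2, a secreted protein that binds bacterial siderophores and so withholds iron, stood at 16.6 and 26.9 FPKM in HF week 3 and at 3.29, 6.41, 7.43, 6.20 and 7.29 FPKM in Control week 19. HF week 5 gave 18.6, 5.50 and 4.27 FPKM in libraries 1 to 3, so that only library 1 was above the controls. Recovery week 7, at 2.84 and 4.00 FPKM, was the lowest group, and Recovery week 11, at 9.63, 11.4 and 11.5, lay above every control. Recovery week 9 stood at 5.60 and 8.15 FPKM, week 13 at 8.12 and 8.95, and week 19 between 3.32 and 11.03. The difference from control was 1.76 on the log2 scale in HF week 3 (SE 0.427, adjusted p = 0.00231 in limma) and 0.35 in HF week 5 (SE 0.373, adjusted p = 0.531). The latter was -0.26 without HF week 5 library 1.

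Hp, haptoglobin, binds free hemoglobin for uptake and spares its iron. It stood at 130.3 and 18.3 FPKM in HF week 3 and at 42.3, 23.9 and 0.973 FPKM in HF week 5, against 1.27, 2.40, 1.09, 1.94 and 1.36 in Control week 19. Of the 5 HF libraries 4 were thus above every control, and HF week 5 library 3 was below all 5. In the recovery groups Hp lay between 0.743 and 6.38 FPKM. It was 4.59 higher than control on the log2 scale in HF week 3 (SE 0.883, adjusted p = 0.000339 in limma) and 2.49 higher in HF week 5 (SE 0.771, adjusted p = 0.0250). The week 5 call was lost without library 1 (1.54, adjusted p = 0.228), library 2 (1.95, adjusted p = 0.114) or Control week 19 library 3 (2.39, adjusted p = 0.0520), and without library 3 the difference was 3.97 (adjusted p = 0.000197). An exact permutation test over the 3 and 5 libraries, two-sided, gave p = 0.214, where the smallest possible is 0.0357.

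The libraries with high Hp were also those with adipocyte markers, of which all 7 listed are in the table. The 7 markers summed to 259 and 113 FPKM in HF week 3 and to 274, 243 and 2.27 FPKM in HF week 5, and to at most 1.53 in the other 19 libraries. The defining markers Adipoq, Plin1, Cidec, Retn and Cfd were present in those 4 libraries, and Lep was at or near 0 in all 24. Ucp1, the remaining marker, passed the filter only through the HF libraries, as did Adipoq, Cidec, Retn and Cfd. Hp is known to be made by fat as well as by liver. Of the 9 hepatocyte markers 4 were tested, and Cyp2e1 and Ttr passed the filter only through the HF libraries. Of the remaining pair Ahsg was called higher in both HF weeks by limma, and Apoa2 was not called, at 2.08 and 3.80 FPKM in HF week 3, at 1.49, 5.85 and 5.49 in HF week 5 and at 4.41 to 5.91 in Control week 19. Cyp2e1 stood at 3.37 and 8.74 FPKM in HF week 3 and at 18.9, 17.6 and 0.151 in HF week 5, and at most 0.459 in the other 19 libraries, while Alb, Apoa1 and Serpina1b were at most 2.31, 0.550 and 0.699 FPKM in any library. The part of adipocyte or hepatocyte RNA in the Hp result was not tested. Over all 24 libraries the rank correlation of Hp was 0.52 with the summed adipocyte markers, 0.61 with the lung list, 0.60 with the fibroblast list and 0.59 with the hepatocyte list, given as a description.

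**Figure D3:**
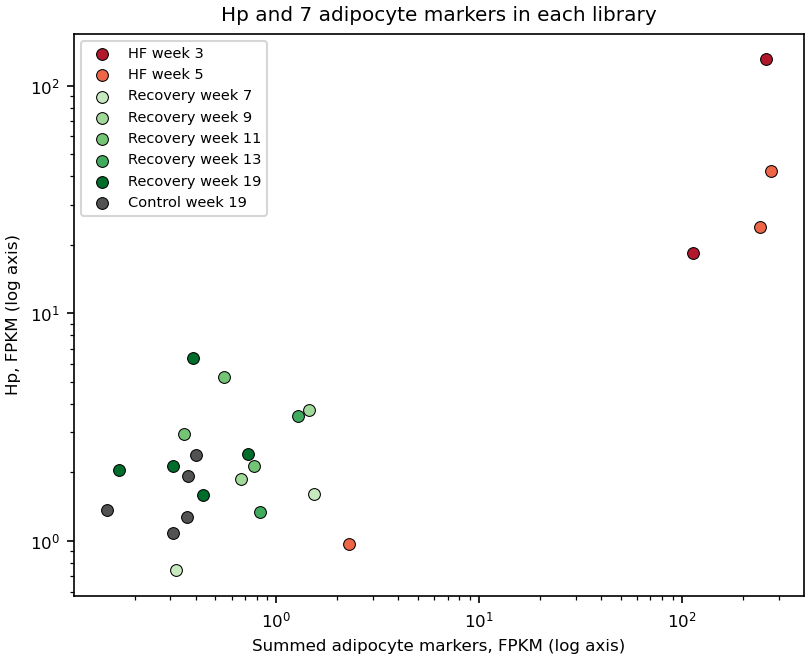
Hp against the summed level of 7 adipocyte markers in each of the 24 libraries, both in FPKM on log axes. The 2 libraries of HF week 3 and libraries 1 and 2 of HF week 5 lie alone at summed markers of 113 to 274 FPKM and Hp of 18.3 to 130.3 FPKM, and HF week 5 library 3 lies with the other groups at 2.27 and 0.973 FPKM.

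Lrg1, a secreted glycoprotein that modulates TGF-beta signalling in endothelium, was the most abundant acute-phase gene here, with a mean of 50.5 FPKM. It stood at 116 and 77.7 FPKM in HF week 3, at 60.4, 34.01 and 28.6 in HF week 5 and at 44.6, 46.5, 55.5, 47.7 and 39.9 in Control week 19. HF week 5 library 1 was above and libraries 2 and 3 were below every control. Recovery values ran from 33.6 to 61.0 FPKM and overlapped the controls in weeks 7, 9, 11, 13 and 19. Lrg1 was 1.02 higher on the log2 scale in HF week 3 (SE 0.239, adjusted p = 0.00171 in limma), a call that was lost without HF week 3 library 1 (0.73, adjusted p = 0.0721). The HF week 5 difference was -0.26 (SE 0.209, adjusted p = 0.398).

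Its partners in TGF-beta signalling, 10 listed and 10 tested, gave 8 higher and 1 lower in HF week 3, with a median of 0.61, where 23.1% of all genes tested were called higher and 27.6% lower. Without HF week 3 library 1 their median was 0.44. The week 5 comparison with Control week 19 gave 4 higher and 0 lower, against 11.6% and 12.4% of all genes: the co-receptor endoglin, Eng (0.67, SE 0.232, adjusted p = 0.0405), the targets and mediators Id3 (0.52, SE 0.152, adjusted p = 0.0190) and Smad1 (0.50, SE 0.107, adjusted p = 0.00288) among them, all by limma. The week 5 median of the 10 was 0.25, and 0.17 without HF week 5 library 1. Endothelial markers, of which all 7 were in the table, summed to 443 and 419 FPKM in HF week 3 and 271 to 372 in HF week 5, against 213 to 250 in Control week 19. Their part in these counts was not tested.

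Saa3 is the serum amyloid A that is made outside the liver, mainly by macrophages and fat. It was the least abundant member, with a mean of 2.79 FPKM, and stood at 20.9 and 4.07 FPKM in HF week 3, at 1.92, 1.24 and 0.436 in HF week 5, and at 0.570, 1.21, 1.94, 0.170 and 3.71 in Control week 19. It was listed at 0 in 1 library of Recovery week 7 and 1 of Recovery week 9. In Recovery week 19 it stood at 0.597, 0.687, 1.28, 1.92 and 11.3 FPKM, so that library 5 held the second highest value of all 24. Saa3 was 2.58 higher on the log2 scale in HF week 3 (SE 0.893, adjusted p = 0.0220 in limma), and without HF week 3 library 1 the call was lost (1.46, adjusted p = 0.351). The macrophage and monocyte markers, 11 of 12 listed found, summed to 485 and 483 FPKM in HF week 3 and to 570, 307 and 433 in HF week 5. In Control week 19 they summed to 247 to 427 FPKM, and their part was not tested.

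Neither regulator passed the test in HF. Socs3 stood at 10.5 and 3.72 FPKM in HF week 3, at 24.03, 3.28 and 3.30 in HF week 5 and at 5.47, 4.39, 4.36, 3.90 and 2.40 in Control week 19. HF week 3 library 1 and HF week 5 library 1 held the 2 highest values of the 24, and the next was 5.59 FPKM. Recovery week 7, at 2.10 and 2.50 FPKM, and Recovery week 9, at 2.11 and 2.68, lay around the lowest control, and Recovery week 19, at 3.40 to 5.59, within or just above it. The difference from control was 0.61 on the log2 scale in HF week 3 (SE 0.502, adjusted p = 0.324 in limma) and 0.66 in HF week 5 (SE 0.438, adjusted p = 0.294), and without library 1 of either group it was -0.09 and -0.24. Its promoter is shown because it was the only one of the 8 members matched that held the STAT site, searched as TTCNNNGAA and in capitals, 154 to 146 bases before the RefSeq start, at chr11:117969367-117969616 on the minus strand of GRCm38.p6, where 7.02% of promoters hold one. GENCODE places other starts of the gene at -681 to 180 bases from that start.
Socs3: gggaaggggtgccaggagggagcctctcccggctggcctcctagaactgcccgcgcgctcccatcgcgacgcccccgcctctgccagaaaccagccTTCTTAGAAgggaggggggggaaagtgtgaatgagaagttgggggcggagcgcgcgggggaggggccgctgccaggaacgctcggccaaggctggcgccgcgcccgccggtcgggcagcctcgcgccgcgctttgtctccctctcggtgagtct
The remaining motifs were the C/EBP core, searched as TTGCNNAA and held once each by Mt2, Lcn2 and Saa3 (9.56% of promoters), and the NF-kB site, held by none of the 8 (7.25% of promoters).

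Stat3 was the steadiest of the 9 genes. It ranged from 15.5 to 27.8 FPKM over the 24 libraries, 1.79-fold from lowest to highest, and the spread of its log2 values was larger than that of only 12.98% of the genes tested. The same share was 99.6% for Hp, 98.96% for Saa3 and 98.6% for Mt2. Stat3 stood at 27.8 and 21.9 FPKM in HF week 3, at 25.0, 18.2 and 15.5 in HF week 5 and at 21.2, 21.0, 22.3, 22.7 and 15.8 in Control week 19. HF week 3 library 1 and HF week 5 library 1 were again the highest. The difference from control was 0.27 (SE 0.153, adjusted p = 0.153 in limma) in HF week 3 and -0.09 (SE 0.134, adjusted p = 0.676) in HF week 5, with a 95% interval of the latter of -0.37 to 0.19. The transcript level does not show how much of the protein was phosphorylated.

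Upstream of Stat3, 18 of 24 listed genes of interleukin 6 family and JAK-STAT3 signalling were tested, and 5 were called higher and 5 lower in HF week 3, where 23.1% and 27.6% of all genes tested were. There were 3 higher and 3 lower in HF week 5 against Control week 19, where 11.6% and 12.4% of all genes tested were, so that the counts of the list lay near those of all genes. The higher ones were Osmr, the oncostatin M receptor (1.12, SE 0.297, adjusted p = 0.0105 in limma), Socs1, a relative of Socs3 (0.84, SE 0.285, adjusted p = 0.0381), and Il6st, which encodes gp130 (0.48, SE 0.134, adjusted p = 0.0139). The lower ones were the ligand Ctf1, cardiotrophin 1 (-1.03, SE 0.229, adjusted p = 0.00354), Cish (-0.46) and Ptpn11 (-0.39). The cytokine Il6 was under the filter, at 4.70 FPKM in HF week 3 library 1 and at most 0.391 elsewhere. The median of the 18 in HF week 5 was 0.11, and -0.06 without HF week 5 library 1. Osmr stood at 19.98 FPKM in that library and at 5.67 and 5.78 in libraries 2 and 3.

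Downstream of Stat3, the 15 target genes and partners gave 4 higher and 2 lower in HF week 3, and in HF week 5 against Control week 19 2 higher and 0 lower, and the counts of higher genes lay near the same shares of all genes. The 2 were Pdpn, a mucin-type membrane protein (0.99, SE 0.333, adjusted p = 0.0360 in limma), and the adhesion molecule Icam1 (0.69, SE 0.213, adjusted p = 0.0250). Of 34 other acute-phase genes only 12 passed the filter, and 3 of them, Hamp, Itih4 and Ptx3, passed only through the HF libraries, and the filter then favours a higher HF level. Over the other 9 genes 5 were called higher and 0 lower in HF week 3, against 23.1% and 27.6% of all genes tested, and 2 and 0 in HF week 5, against 11.6% and 12.4%. The largest differences of the 9 in week 3 were those of Timp1, an inhibitor of matrix metalloproteinases (4.67, SE 0.617, adjusted p = 8.96e-06), Serpina3g, a relative of Serpina3n (2.08, SE 0.465, adjusted p = 0.00119), and Cfb, complement factor B (1.93, SE 0.287, adjusted p = 3.13e-05). Those called in HF week 5 were Timp1 (1.89, SE 0.538, adjusted p = 0.0159) and Cfb (0.86, SE 0.251, adjusted p = 0.0178). Hamp, the iron hormone hepcidin, stood at 392, 5.69 and 0 FPKM in HF week 5 libraries 1, 2 and 3. Ptx3, a long pentraxin, stood at 32.1 and 2.00 FPKM in HF week 3 and at most 1.84 in any other library. Itih4 stood at 5.66 and 2.87 FPKM in HF week 3 and at 2.56, 1.04 and 0.221 in HF week 5. Liver acute-phase genes such as Saa1 and Crp were at most 0.673 and 0.131 FPKM in any library. In HF week 5 the median of the 12 acute-phase genes was 0.65 and that of the 15 Stat3 targets 0.04. Without HF week 5 library 1 these medians were 0.12 and -0.37.

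The iron partners of Lcn2 and Hp, 6 of 8 tested, gave 3 higher and 0 lower in HF week 3, where 23.1% and 27.6% of all genes tested were called. Their median there was 0.49, and 0.61 without HF week 3 library 1. In HF week 5 against Control week 19 they gave 3 higher and 1 lower, where 11.6% and 12.4% of all genes were, namely Bdh2, which makes the mammalian siderophore (1.74, SE 0.308, adjusted p = 0.000707 in limma), Slc22a17, a proposed Lcn2 receptor (0.93, SE 0.262, adjusted p = 0.0148), the endocytic receptor Lrp1 (0.60, SE 0.152, adjusted p = 0.00782) and the heme oxygenase Hmox2, which fell by 0.62 (SE 0.156, adjusted p = 0.00775). Antiproteases and protease targets of Serpina3n, 10 of 14 tested, gave 5 higher and 1 lower in week 3, and 3 higher and 1 lower in week 5, to be read against the same shares of all genes, the higher ones being Serpinf1 (1.04), Serpine2 (0.76) and Serpinb6a (0.56). The HF week 5 median was 0.43 for the iron partners and 0.26 for the antiproteases. Without HF week 5 library 1 these medians were 0.08 and -0.09. In Recovery week 19 against Control week 19 no gene of the 8 pathway lists was called in either direction by limma's adjusted p. Of all genes tested only 0.0235% were called there.

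Set against all genes, the 7 of 9 members called higher in HF week 3 compare with 23.1% of the genes tested that were called higher there, and 0 were called lower, against 27.6% (50.7% in either direction, and 57.1% at an unadjusted p under 0.05). The same 7, all but Socs3 and Stat3, had both HF libraries above all 5 controls, which 21.4% of the genes tested had. Without HF week 3 library 1, whose values showed no steps, 5 were called higher, and Lrg1 and Saa3 were not. The 1 HF week 3 library then left is assumed to vary like the other groups. The share of all genes tested that were called in that fit is not given here. Without HF week 3 library 1 the week 3 median was 0.03 for the interleukin 6 family genes and -0.36 for the Stat3 targets. It was -0.01 for the glucocorticoid targets and 0.44 for the Lrg1 partners. With both libraries these 4 medians were -0.12, 0.24, 0.34 and 0.61. In HF week 5 only Hp was called higher, 1 of 9, against 11.6% of all genes tested, 0 were called lower against 12.4%, and all 9 members overlapped the controls, where 14.8% of the genes tested lay wholly above them and 14.7% wholly below. Hp and Serpina3n were higher in HF week 5 at an unadjusted p under 0.05 in limma, 2 of 9. Of all genes tested 36.5% differed there in either direction. The 95% interval of the difference was 0.88 to 4.10 for Hp and 0.04 to 1.77 for Serpina3n. Without HF week 5 library 3, Mt2 was called too (1.37, adjusted p = 0.0402).

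**Figure D4:**
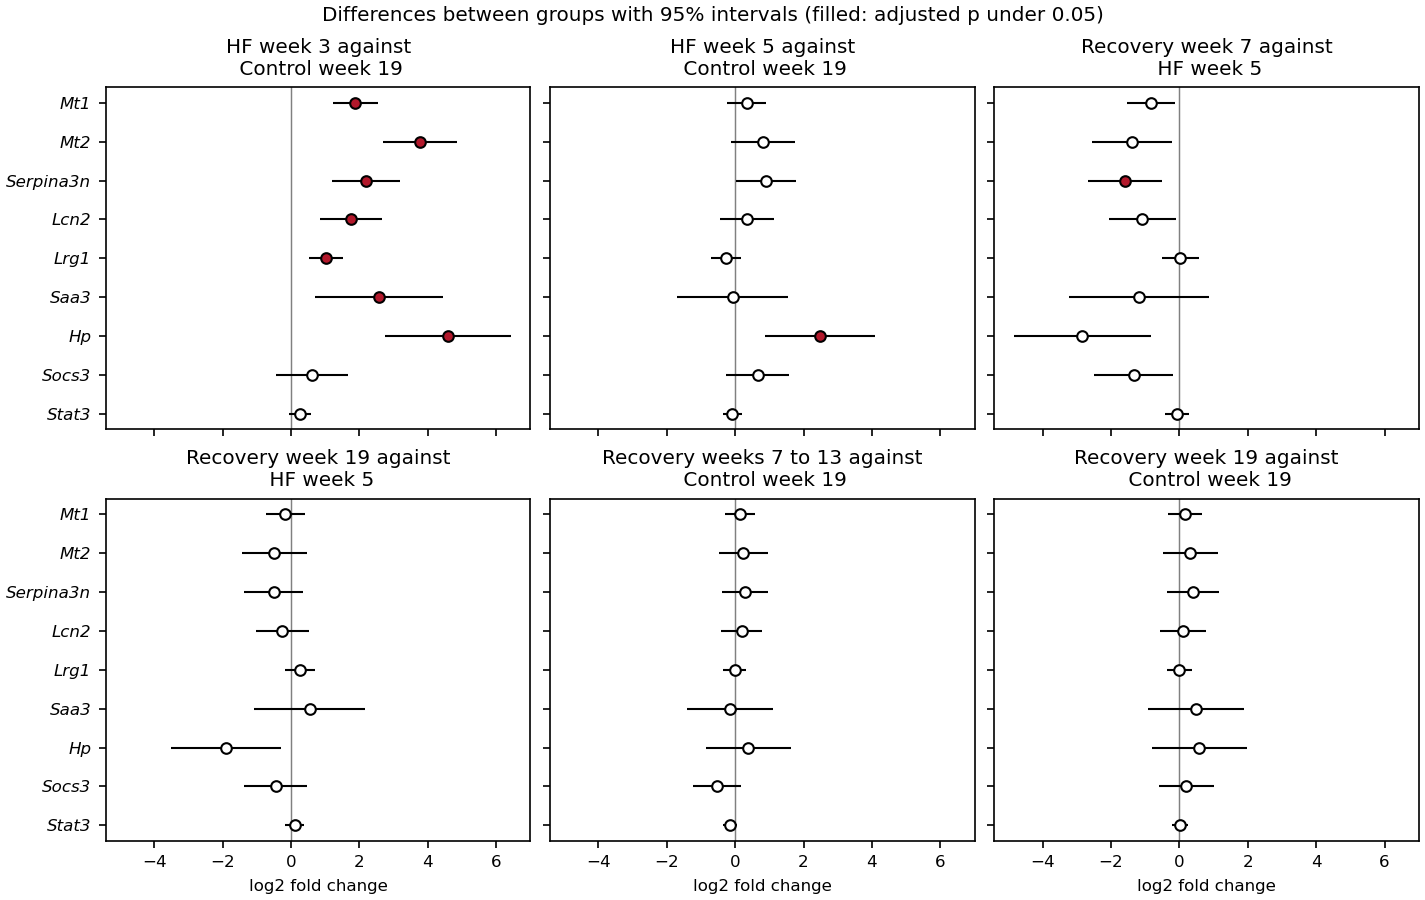
Log2 fold change of each gene (points) with its 95% interval (lines) from limma in 6 comparisons; filled points have an adjusted p under 0.05 over the 12759 genes tested. There are 7 filled points for HF week 3 against Control week 19, 1 for HF week 5 (Hp), 1 for Recovery week 7 against HF week 5 (Serpina3n) and none in the other 3.

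At HF week 5 the 3 libraries differed from each other. Relative to the control mean on the log2 scale, HF week 5 library 1 was higher by 1.15 for Mt1, 2.48 for Mt2, 2.55 for Serpina3n, 1.58 for Lcn2, 4.38 for Hp and 2.45 for Socs3, and by 0.37 for Lrg1, 0.54 for Saa3 and 0.28 for Stat3. Library 2 was higher by 3.56 for Hp and lay between -0.45 and 0.25 for the other 8 genes. Library 3 lay between -0.83 and 0.20 for all 9. The median rank over the 9 genes, of 24 libraries, was 2 for library 1, 16 for library 2 and 21 for library 3. Library 1 had a relative depth of 1.26, against 1.17 and 1.10 in libraries 2 and 3.

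**Figure D5:**
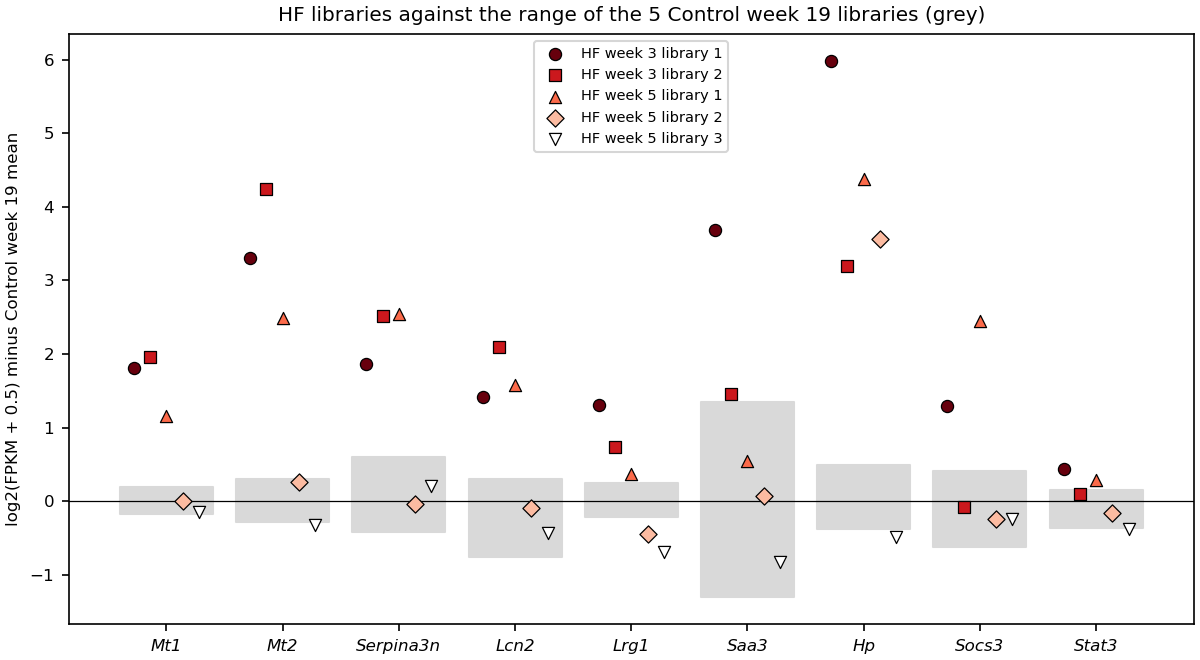
Difference of each HF library from the mean of Control week 19 for each gene, in log2(FPKM + 0.5), with the range of the 5 control libraries in grey. HF week 5 library 1 (filled triangles) lies above the grey range for all genes but Saa3, and below both HF week 3 libraries for Mt1, Mt2, Lrg1 and Saa3, while HF week 5 libraries 2 and 3 lie in or near the grey range except library 2 for Hp, at 3.56.

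Markers of several other cell types were high in HF libraries, and in HF week 5 some lists were highest in library 1 and others were not. Mesothelial markers, all 6 in the table and Msln and Upk3b among them, summed to 73.4 and 237 FPKM in HF week 3 and to 84.6, 32.2 and 11.6 FPKM in HF week 5, against at most 3.37 in the other 19 libraries. Neutrophil markers, 12 of 13 found, summed to 36.0 and 43.3 FPKM in HF week 3, 68.9, 13.6 and 10.04 in HF week 5 and 5.35 to 39.0 in Control week 19. Fibroblast markers, all 9 found, summed to 806 and 863 FPKM in HF week 3, 901, 436 and 723 in HF week 5 and 321 to 464 in Control week 19. In HF week 5 libraries 1, 2 and 3 the endothelial sum was 337, 271 and 372 FPKM, the smooth muscle sum 216, 296 and 206 and the red blood cell sum 3574, 1509 and 7932. Hepatocyte markers summed to 28.1 and 71.4 FPKM in HF week 3 and to 117, 32.1 and 10.8 in HF week 5 libraries 1, 2 and 3. Of the 117 FPKM the fetuin gene Ahsg gave 94.0, with Alb at 0. The lung list reached 49.5 FPKM in HF week 5 library 1 through Scgb1a1 at 48.1, with Sftpc at 0. Over all 24 libraries the rank correlation with the fibroblast list was 0.84 for Serpina3n, 0.75 for Mt1, 0.67 for Lcn2 and 0.61 for Mt2. It was 0.40 for Saa3, 0.35 for Lrg1, 0.10 for Socs3 and -0.08 for Stat3. With the neutrophil list it ran from 0.22 for Saa3 to 0.70 for Socs3. With the macrophage and monocyte list it ran from -0.10 for Stat3 to 0.74 for Serpina3n. These are descriptions, and the part of these cells in the member results was not tested.

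Recovery week 7, the first group after induction, gave the lowest mean of the 8 groups for 8 of the 9 genes, all but Stat3. Against HF week 5 only Serpina3n was called, with a fall of 1.58 on the log2 scale (SE 0.519, adjusted p = 0.0460 in limma), 1 of 9 where 6.75% of all genes tested were called lower. Of all genes tested 8.05% were called higher. At an unadjusted p under 0.05 in limma Mt1, Mt2, Serpina3n, Lcn2, Hp and Socs3 were lower, where 29.8% of all genes tested differed in either direction. Without HF week 5 library 1 the Serpina3n difference was -0.76 (adjusted p = 0.200), and without library 3 Mt2, Serpina3n, Hp and Socs3 were called. The Serpina3n call was also lost without a filter, with median centring and with only the groups compared in the fit. Hp differed by -2.83 (SE 0.964, adjusted p = 0.0535), Mt2 by -1.38 (SE 0.561, adjusted p = 0.101) and Socs3 by -1.34 (SE 0.548, adjusted p = 0.105). Mt1, Serpina3n, Lcn2 and Socs3 had both libraries below all 3 of HF week 5, 4 of 9, where 27.0% of all genes tested did. The 2 libraries of Recovery week 7 also had the lowest sums of neutrophil markers, 2.74 and 2.98 FPKM. The macrophage and monocyte, fibroblast, endothelial, smooth muscle, adipocyte, mesothelial and hepatocyte sums were also below all of HF week 5. Those of red blood cell and lung markers overlapped. The cardiomyocyte sum was higher, with Myh6 given as 0 in HF week 5. The part of these cells in the falls was not tested.

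The recovery groups of weeks 7 to 13 together did not differ from Control week 19 by limma for any of the 9 genes at an adjusted p, nor at an unadjusted p under 0.05, where 0.0705% of all genes tested were called in either direction (0.0549% higher, 0.0157% lower, and 6.9% at an unadjusted p). The libraries of all 9 genes overlapped, and only 0.392% of all genes tested were higher and 0.29% lower without overlap. The differences ran from -0.52 for Socs3 to 0.39 for Hp. That mean holds groups on both sides of the controls: for Mt1, Mt2, Serpina3n and Lcn2 the Recovery week 7 mean was below and the Recovery week 11 mean above that of the controls. In Recovery week 11 the macrophage and monocyte markers summed to 458 to 649 FPKM, against 247 to 427 in Control week 19. Fibroblast markers summed to 536 to 864, against 321 to 464. The other marker sums overlapped the controls, save the higher cardiomyocyte sum, with Myh6 given as 0 in the controls. Their part was not tested. At Recovery week 19 the differences from Control week 19 ran from 0.003 for Lrg1 to 0.58 for Hp, with 0 of 9 called, 0 at an unadjusted p under 0.05 (2.88% of all genes tested), and 0.0235% of all genes tested called in either direction. The 95% interval of the difference was -0.33 to 0.66 for Mt1, -0.49 to 1.13 for Mt2, -0.35 to 1.15 for Serpina3n and -0.81 to 1.98 for Hp. Recovery week 19 library 5 held the highest value of its group for Mt1, Mt2, Serpina3n, Lcn2, Lrg1, Saa3 and Hp, and the lowest for Socs3 and Stat3.

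Against HF week 5, Recovery week 19 gave 0 of 9 called by limma, where 24.2% of all genes tested were called in either direction, and 1 at an unadjusted p under 0.05 (36.8% of all genes tested), Hp (-1.90, SE 0.771, adjusted p = 0.0783). Without HF week 5 library 3 Hp was called (-3.39, adjusted p = 0.000708). The exact permutation test, two-sided, gave p = 0.214 for Hp and at least 0.5 for the other 8. All 9 genes overlapped between the groups, where 14.1% of the genes tested had Recovery week 19 wholly higher and 12.7% wholly lower. Without HF week 5 library 1, Mt1, Mt2, Serpina3n, Lcn2 and Socs3 were 0.24 to 0.45 above their HF week 5 level in Recovery week 19, with 0 called. This comparison shares the HF week 5 libraries with those above.

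Across the 24 libraries the 9 genes rose and fell together to different degrees, given here as descriptions because the libraries share groups and depth. Spearman's rho was above 0 for all 36 pairs, with a median of 0.61 and a range of 0.11 to 0.87. The highest were Mt1 with Lcn2 (0.87), Mt1 with Mt2 (0.86) and Mt2 with Lcn2 (0.84). Socs3 and Stat3 formed a pair of their own, at 0.79 with each other, while Socs3 was at 0.11 with Mt1 and Stat3 at 0.12 with Serpina3n. Over the 19 libraries without HF, 28 of 36 pairs were above 0, with a median of 0.47, Mt1 with Mt2 and Mt1 with Lcn2 stood at 0.80, Socs3 with Stat3 at 0.78 and Serpina3n with Stat3 at -0.37.

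The genes outside the 9 with the pattern most like each member, by Spearman's rho over the 24 libraries, were Tubb5 (0.90), Fkbp7 (0.87) and S100a10 (0.86) for Mt1. For Mt2 they were Wdr92 (0.80), Copg (0.79) and Dbn1 (0.79). Serpina3n had Lgals3 (0.90), 6330406I15Rik (0.86) and C1qtnf7 (0.86), and Lcn2 had Copg (0.83), Rasgef1b (0.80) and Tubb5 (0.79). For Lrg1 they were Agt (0.81) and Tgm2 (0.79), for Saa3 Phgdh (0.72), Wdr92 (0.71) and B4galt1 (0.68), and for Hp Pdzd4 (0.82), Panx1 (0.81) and Fgl2 (0.81). Socs3 had Bcl3 (0.87), Acer2 (0.78) and Tmem39a (0.76), and Stat3 had D19Wsu162e (0.91), Acer2 (0.81) and Lmo4 (0.80). Acer2 was thus named for both regulators, and Tubb5 and Copg for Lcn2 and a metallothionein.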

How the data were processed

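RNA of mouse hearts was sequenced by the authors from both ends after poly(A) enrichment, aligned to MGSCv37 (mm9) with TopHat2 and turned into FPKM with Cuffdiff; annotation and scaling are not given in the sources used here. The deposited values are FPKM for 29955 genes. Columns were matched to labelled groups by the week in their names. Another 5 columns under the name of Control week 5, which has 4 labelled samples, were not used, so Control week 19 served as the control. Recovery week 9 has 3 labelled samples and 2 columns.

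Genes that averaged 0.5 FPKM or more, 12759 in all, were fitted as log2(FPKM + 0.5) with limma 3.58.1 (R 4.3.3), with a mean for each of 8 groups, 24 libraries, 16 residual degrees of freedom, eBayes with a trend and two-sided tests. It replaced Cuffdiff, which the methods name. Fold changes are on the log2(FPKM + 0.5) scale and understate those of low genes. A gene was called at a Benjamini-Hochberg adjusted p under 0.05 over all genes tested. For the members, exact permutation tests over libraries were run beside it for HF week 5 and Recovery week 19. Python 3.11.15, pandas 2.3.3 and scipy 1.17.1 handled the tables, and the fit was tested on simulated data. FPKM give no counts, so no counting error is given. How fragments shared between paralogues (Mt1 and Mt2, the Serpina3 and Saa clusters) were counted is not given either, so these values are uncertain.

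The members and all gene lists were chosen with earlier results of these data known. Of each pathway list at most 3 genes a direction with the largest change in HF week 5 are named, and genes named for HF week 3 or for 1 library were chosen after their values were seen. The 3 genes with the highest Spearman's rho are named for each member. Some items these rules select are not reported here. Alternatives were pseudocounts of 0.1 and 1, no filter, a mean of at least 1 FPKM, median centring, division by the library median (levels only), quantile normalization, only the groups compared, robust eBayes, the unadjusted p and leaving out each library. Fits without HF week 3, and with HF week 5 library 3 as the lone HF library, were added after seeing the data.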

Additional observations from a re-analysis of the deposited data

Results flagged for a closer look

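There were 3 values that stood far from the other libraries of their group of 5, among 18 sets of a gene and a group examined, where chance gives about 1 in 20. The lowest Control week 19 library for Lcn2 stood at 3.29 FPKM, with the other 4 at 6.20 to 7.43. The highest Recovery week 19 library for Hp stood at 6.38 FPKM, with the other 4 at 1.60 to 2.41. The lowest Control week 19 library for Stat3 stood at 15.8 FPKM, with the other 4 at 21.0 to 22.7.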

How the results depend on the processing

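The counts of members called in HF week 3 (7 higher, 5 without library 1, 0 lower), Recovery weeks 7 to 13 and Recovery week 19 against Control week 19 (0 each) stayed within 1.5 times of themselves under every alternative run. In HF week 5 the 1 member called higher became 0 with only the groups compared in the fit, 2 on the unadjusted p, 0 with library 3 as the lone HF library, and 0 to 2 when 1 library was left out (0 without HF week 5 library 1 or Control week 19 library 3, 2 without HF week 5 library 3). In Recovery week 7 against HF week 5 the 1 called lower became 0 without a filter, with median centring, with only the groups compared or with library 3 alone, 2 with quantile normalization or without HF week 3, 6 on the unadjusted p, and 0 to 4 when 1 library was left out (0 without either Recovery week 7 library or HF week 5 library 1, 2 without HF week 5 library 2, 4 without library 3). In Recovery week 19 against HF week 5 the 0 called lower became 1 on the unadjusted p, 1 without HF week 3, and 0 to 1 when 1 library was left out.

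Fold changes kept their direction and call in 958 cases, gained a call in 17, lost it in 14 and changed sign in 55; of the last only Hp in HF week 5 had been called. With library 3 as the lone HF library, assumed to vary like the other groups, the HF week 5 differences were -0.14 for Mt1, -0.33 for Mt2, -0.43 for Lcn2, -0.48 for Hp and -0.24 for Socs3; those of Recovery week 7 against HF week 5 were 0.14 for Hp and 0.24 for Stat3; those of Recovery week 19 against HF week 5 were 0.31 for Mt1, 0.65 for Mt2, 0.20 for Serpina3n, 0.53 for Lcn2, 1.07 for Hp and 0.45 for Socs3. Saa3 in HF week 5 was 0.0019 with a pseudocount of 0.1, Lrg1 in Recovery weeks 7 to 13 was 0.012 with median centring, and Mt1 in Recovery week 19 against HF week 5 was 0.048 with quantile normalization. The cause was not tested.

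Leaving out 1 library changed further signs, all of uncalled differences. Against Control week 19 the ranges were -0.086 to 1.30 for Socs3 in HF week 3. In HF week 5 they were -0.069 to 0.58 (Mt1), -0.037 to 1.37 (Mt2), -0.26 to 0.74 (Lcn2), -0.40 to 0.30 (Saa3), -0.24 to 1.11 (Socs3) and -0.27 to 0.062 (Stat3). In Recovery weeks 7 to 13 they were -0.062 to 0.056 (Lrg1) and -0.47 to 0.19 (Saa3). In Recovery week 19 they were -0.037 to 0.29 (Mt1), -0.091 to 0.31 (Lcn2), -0.066 to 0.12 (Lrg1), -0.11 to 0.82 (Saa3) and -0.065 to 0.062 (Stat3). Against HF week 5 they were -0.19 to 0.34 (Lrg1) and -0.21 to 0.13 (Stat3) for Recovery week 7, and -0.41 to 0.24 (Mt1), -1.05 to 0.36 (Mt2), -0.98 to 0.32 (Serpina3n), -0.64 to 0.36 (Lcn2), -0.036 to 0.86 (Saa3), -0.90 to 0.45 (Socs3) and -0.037 to 0.30 (Stat3) for Recovery week 19.

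No paired analysis was possible because the columns carry no replicate letter or number of the labelled samples. Groups of 2 or 3 libraries, an unknown absolute depth and controls of another age limit all comparisons with HF.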
